A study of Mus musculus with 79 samples.

Results

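The genes of cystine uptake and of the integrated stress response were followed in mouse lungs after cigarette smoke. They were 10 genes chosen by their place in the pathway and by measured values, with the exposure results of these mice known, the smoke difference of Slc7a11 among them. They were Slc7a11, Slc3a2, Slc1a4, Slc7a5, Atf4, Asns, Chac1, Trib3, Ddit3 and Sesn2. Array rows were matched to these symbols by identifier, and 9 of the 10 had a row among the 31350 rows of the table. Asns was not matched and was not analysed here. Each of the 9 genes had 1 row, so no choice between rows was needed. RNA came from the right lung of 79 C57BL/6J mice aged 5 to 7 weeks, each on its own array, and 16 groups held 4 to 6 mice each. Mice were wild type (WT) or carried a transgene for Scnn1b, the β subunit of the epithelial sodium channel (βENaC mice, littermates of the WT mice). The transgene is known to be driven in club cells of the airway and to give an inflamed, mucus-laden airway without smoke. Male and female mice of both genotypes breathed smoke from 6 unfiltered 3R4F reference cigarettes per day or room air (sham) for 1 or 5 consecutive days, and lungs were taken 4 h after the last exposure.

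Slc7a11 (xCT) is the light chain of the antiporter that brings cystine into the cell in exchange for glutamate, and Slc3a2 (CD98 heavy chain) is the partner that holds it, and the leucine carrier Slc7a5 (LAT1), at the cell surface. The cystine is reduced to cysteine, which limits the synthesis of glutathione. In the integrated stress response, kinases that sense amino acid shortage, heme shortage, viral RNA or misfolded protein phosphorylate the initiation factor eIF2, general translation falls and the transcription factor ATF4 is made, which turns on amino acid carriers and enzymes. ATF4 is controlled largely at translation, and the arrays measured mRNA only.

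The promoters of 8 of the 9 genes were matched in RefSeq (GRCm38.p6), from 250 bases before to 50 after the annotated start; the unmatched gene was Slc7a5. The composite element that ATF4 binds with C/EBP proteins was searched as TGATGNAA on both strands. It was present in 4 of the 8 promoters and in 3.97% of the 32851 promoters of the table. Slc7a11 held 2 copies in opposite orientation, and Slc1a4, Chac1 and Trib3 held 1 each. Nothing is read from this share of promoters, since the genes were chosen by their place in the pathway. The core of the antioxidant response element, searched as TGACNNNGC on both strands, was present in 1 of the 8, Sesn2, and in 12.4% of all promoters. These 4 stretches are shown because they hold the ATF4 composite letters, which are in capitals. Slc7a11 (chr3:50443614-50443713) and Slc1a4 (chr11:20332694-20332813) are on the minus strand, Chac1 (chr2:119351012-119351111) is on the plus strand and Trib3 (chr2:152344031-152344150) is on the minus strand, each printed 5′ to 3′ in the direction of the gene.
Slc7a11 promoter: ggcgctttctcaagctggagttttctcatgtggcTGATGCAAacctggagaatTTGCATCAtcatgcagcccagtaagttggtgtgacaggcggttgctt
Slc1a4 promoter: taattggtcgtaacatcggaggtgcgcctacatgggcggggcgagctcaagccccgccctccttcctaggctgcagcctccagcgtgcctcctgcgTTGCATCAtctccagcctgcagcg
Chac1 promoter: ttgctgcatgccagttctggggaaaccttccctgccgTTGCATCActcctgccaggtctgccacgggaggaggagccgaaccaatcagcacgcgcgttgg
Trib3 promoter: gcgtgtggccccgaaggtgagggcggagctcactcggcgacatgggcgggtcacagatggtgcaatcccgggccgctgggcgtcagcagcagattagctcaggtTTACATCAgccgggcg
A match of letters is a description of the sequence. The genes that hold it did not behave alike after smoke, as the values that follow show.

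Labels were checked first. Scnn1b lay between 11.5 and 11.9 log2 units in the βENaC mice and at or below 9.47 in the WT mice, and Cyp1a1, the smoke-responsive cytochrome, lay at or below 8.98 in sham mice and at or above 9.96 in smoke-exposed mice. In 13 WT smoke-exposed mice 1 label field names the other genotype, and the Scnn1b values are those of WT mice. In an earlier clustering 4 mice stood apart (WT smoke female 5-day replicate 2, βENaC sham male 1-day replicate 1, βENaC sham male 5-day replicate 3 and βENaC smoke female 5-day replicate 3), and the values without them are given beside the results that rest on them. A gene was called when its adjusted p (limma, Benjamini-Hochberg over all 31350 rows) was below 0.05 and its coefficient exceeded 0.379 log2 units, a 1.3-fold change. A coefficient is a difference between means in log2 intensity, given ± SE. Adjusted p-values for exposure describe genes that were chosen with exposure results known, and are not independent evidence of a smoke response. In whole lung, fewer cells of a type and less RNA per cell cannot be told apart.

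Slc7a11 (NM_011990) had the largest smoke difference of the 9 genes at both durations. The set was put together with its exposure and exposure by genotype values known, so these are a description with no test. In WT mice after 1 day, the lowest, median and highest values were 4.22, 4.65 and 4.96 in 10 sham mice and 8.45, 9.39 and 10.1 in 10 smoke-exposed mice. In βENaC mice they were 4.92, 6.03 and 8.69 in sham and 7.88, 8.72 and 9.76 after smoke. The WT groups did not overlap, which was true of 0.14% of all rows, and the βENaC groups overlapped through 1 sham male at 8.69, which is among the mice that stood apart, so that 5 of 10 smoke-exposed βENaC mice exceeded every sham mouse. The smoke coefficient was 4.80 ± 0.28 in WT mice, a 28.0-fold difference, and 2.50 ± 0.28 in βENaC mice, a 5.67-fold difference. The WT sham mean was 4.56 at 1 day and 4.46 at 5 days, near the median row of 4.51. Expression and background were not separated at that level, which limits the folds and differences that use WT sham mice. Without the mice that stood apart the βENaC coefficient was 2.74 ± 0.23. The smoke coefficient in WT exceeded that in βENaC mice by 2.30 ± 0.39 log2 units, and by 2.04 ± 0.30 without those mice.

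After 5 days the smoke-exposed levels of Slc7a11 were lower than after 1 day while sham WT mice lay below 5 log2 units at both. WT mice had lowest, median and highest values of 4.11, 4.38 and 4.96 in 11 sham mice and 5.52, 6.92 and 7.53 in 9 smoke-exposed mice, with no overlap (0.188% of all rows). βENaC mice had 5.42, 6.58 and 7.57 in 9 sham mice and 5.35, 7.96 and 8.71 in 10 smoke-exposed mice, and these ranges overlapped. The smoke coefficient was 2.29 ± 0.28 in WT and 1.06 ± 0.29 in βENaC mice. In βENaC females it was smallest, with group means of 6.85 ± 0.41 (SD, n = 4) in sham and 7.19 ± 1.24 (SD, n = 5) after smoke, where 1 smoke-exposed mouse lay at 5.35 and another, among the mice that stood apart, at 8.71. Across all mice the smoke coefficient of Slc7a11 was lower at 5 days than at 1 day, by -1.86 ± 0.45 log2 units (-1.98 ± 0.42 without the mice that stood apart). This difference is built from the same exposure values and is a description too.

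**Figure D1:**
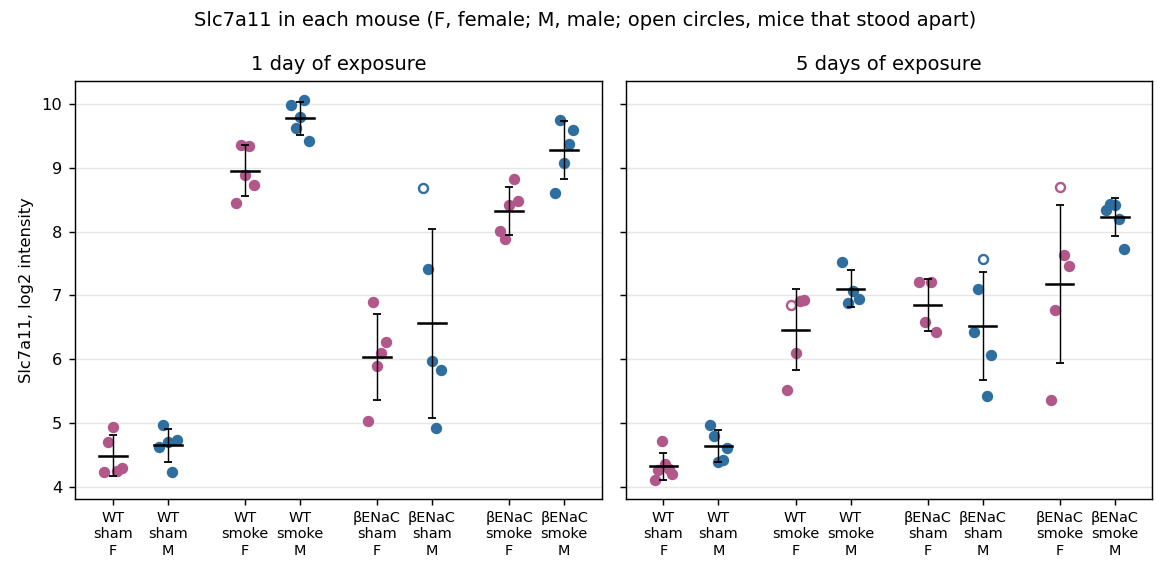
Slc7a11 log2 intensity (vertical axis) in each mouse by genotype, exposure and sex after 1 day (left) and 5 days (right); bars are group means ± SD and open circles are the mice that stood apart. WT sham mice lie between 4.11 and 4.96, and sham βENaC mice reach 8.69 at 1 day and 7.57 at 5 days.

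Slc7a11 was also higher in βENaC than in WT mice that breathed room air, where the WT means lay near the median row, as given above. At 1 day 9 of 10 sham βENaC mice lay above the highest of 10 WT mice, and at 5 days all 9 lay above all 11, as in 0.651% of all rows. The genotype coefficient in sham mice was 1.73 ± 0.28 at 1 day, a 3.33-fold difference (limma, adjusted p = 0.000167), and 2.16 ± 0.28 at 5 days, a 4.47-fold difference (adjusted p = 1.83e-06). Without the mice that stood apart it was 1.5 ± 0.23 (adjusted p = 0.000156) and 2.07 ± 0.28 (adjusted p = 3.35e-06). The exposure by genotype values, known when the genes were chosen, use the same sham mice. The adjusted p-values of Slc7a11 for genotype are therefore a description and not independent evidence of a genotype difference. In smoke-exposed mice the genotype coefficient was -0.57 ± 0.28 at 1 day (adjusted p = 0.333) and 0.93 ± 0.29 at 5 days (adjusted p = 0.0916). Over both exposures together the genotype coefficient was 0.58 ± 0.27 at 1 day (adjusted p = 0.234) and 1.56 ± 0.22 at 5 days (adjusted p = 3.45e-06). Slc7a11 was the 1 of the 9 genes called for genotype in sham mice at either duration, where 0.478% of all rows at 1 day and 1.84% at 5 days were called higher in βENaC mice. It was also the 1 called over both exposures at 5 days (1.87% of all rows higher). None of the 9 was called over both exposures at 1 day (1.13%), where 3 of the 9 and 17.4% of all rows had an unadjusted p below 0.05. None was called in smoke-exposed mice at 1 day (1.08%) or 5 days (0.66%), where 1 of the 9 had an unadjusted p below 0.05 at each, as had 14.7% and 12.7% of all rows.

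Markers of other cells moved with genotype in these sham mice. The alveolar macrophage list (9 of 9 genes measured) had 4 genes called higher (Marco, Chil3, Itgax and Mrc1) and 1 called lower (Krt79) in 5-day sham βENaC mice, and none higher and Krt79 lower at 1 day. The mean log2 intensity of the list ranged from 8.47 to 8.66 in 5-day WT and from 8.75 to 9.40 in 5-day βENaC sham mice, with no overlap. At 1 day the ranges were 8.10 to 8.69 and 8.26 to 9.33. Of the 10 sham βENaC mice at 1 day, 6 had a list level inside the WT range, and their Slc7a11 values ran from 4.92 to 6.89, with 5 of the 6 above the highest WT value of 4.96. The part of macrophage content in the 1-day difference of Slc7a11 was not tested. At 5 days no βENaC mouse lay inside the WT range of the list, so macrophage marker level and genotype cannot be told apart there. The goblet cell list (5 of 5 measured, 5 called higher at 5 days and Muc5b alone at 1 day) ranged from 4.70 to 7.08 in WT and 7.13 to 8.55 in βENaC sham mice at 5 days, with no overlap. Goblet cell marker level and genotype cannot be told apart there either. The club cell list (3 of 4 measured) ranged from 11.73 to 11.86 in WT and from 11.33 to 11.68 in βENaC sham mice at 1 day. At 5 days its ranges were 11.72 to 11.86 and 11.30 to 11.58. Club cell marker level and genotype thus cannot be told apart at either duration. The part of these lists in the Slc7a11 difference was not tested. Within groups, over 79 mice, the correlation of Slc7a11 was 0.475 with the macrophage list and -0.642 with the endothelial list. Over the 75 mice that remain without those that stood apart, these were 0.251 and -0.371. The macrophage list was not the highest. Over 79 mice the correlation was 0.54 with the eosinophil, 0.452 with the neutrophil, 0.404 with the monocyte and -0.464 with the club cell list. Over 75 mice these were 0.311, 0.297, 0.311 and -0.137. The eosinophil list shares Siglecf with the macrophage list. With the alveolar type 2 list the correlation of Slc7a11 was 0.38 over 79 mice and 0.273 over 75. These are descriptions of genes measured on the same arrays.

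**Figure D2:**
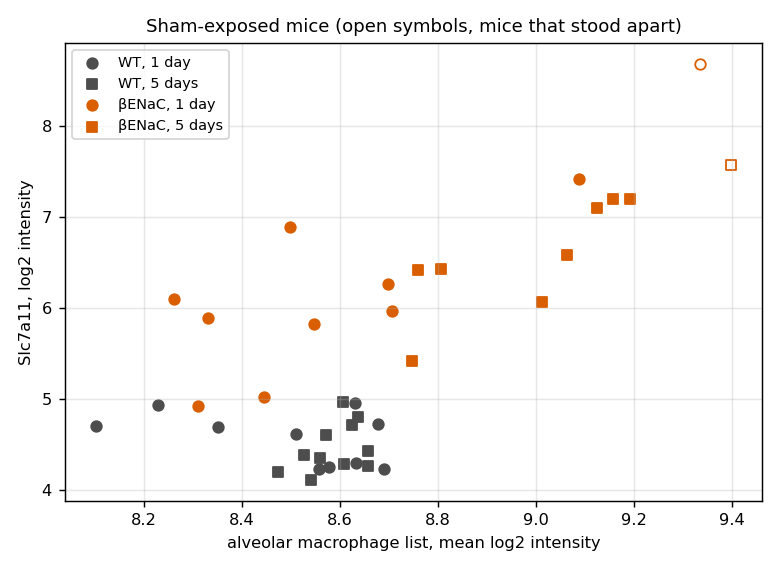
Slc7a11 log2 intensity (vertical axis) against the mean log2 intensity of the alveolar macrophage marker list (horizontal axis) in each sham-exposed mouse, by genotype and duration; open symbols are mice that stood apart. At 5 days the βENaC mice (8.75 to 9.40 on the list) lie to the right of and above the WT mice (8.47 to 8.66), and at 1 day 6 βENaC mice share the list range of the WT mice.

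The partner chain and the other carriers changed much less. Slc3a2 (NM_001161413) had a row mean of 10.3 log2 units, and its spread within groups was small (SD 0.11 against a table median of 0.16). Its lowest, median and highest values at 1 day were 10.1, 10.3 and 10.5 in sham and 10.1, 10.4 and 10.8 in smoke-exposed mice, and the ranges overlapped widely. The smoke coefficient after 1 day was 0.17 ± 0.04 (limma, adjusted p = 0.0058), and 5 days of smoke gave 0.17 ± 0.03 (adjusted p = 0.000327), a 1.13-fold difference each time that passed the adjusted p and not the 1.3-fold threshold. At 5 days 18 of 19 smoke-exposed mice lay above the sham mean. Slc7a11 and Slc3a2 alone among the 9 genes passed an adjusted p of 0.05 at 5 days, as 6.53% of all rows did.

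Slc1a4 (NM_018861), the carrier ASCT1 for alanine, serine and cysteine, was the clearest responder after Slc7a11 at 1 day. Its lowest, median and highest values were 6.09, 6.45 and 6.58 in 20 sham mice and 6.41, 7.06 and 7.76 in 20 smoke-exposed mice, and 19 of the 20 exceeded every sham mouse. It rose by 0.69 ± 0.07 log2 units, 1.61-fold (limma, adjusted p = 3.55e-09), and the coefficient was 0.66 ± 0.10 in WT and 0.72 ± 0.10 in βENaC mice. At 5 days the smoke coefficient was 0.17 ± 0.07 (adjusted p = 0.148), and the difference between durations was -0.51 ± 0.12 (-0.50 ± 0.12 without the mice that stood apart). Slc7a11 and Slc1a4 were past the threshold for a lower coefficient at 5 days, as were 0.303% of all rows, and nothing is read from this count, since it rests on the exposure values.

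Slc1a4 rose more in males. In smoke-exposed mice at 1 day its lowest, median and highest values were 6.41, 6.80 and 6.98 in 10 females and 7.14, 7.40 and 7.76 in 10 males, with no overlap, as in 0.424% of all rows. In sham mice the sexes overlapped, at 6.09 to 6.58 in females and 6.24 to 6.58 in males. Smoke minus sham was 0.35 ± 0.11 in WT females and 0.43 ± 0.10 in βENaC females, and 0.96 ± 0.11 in WT males and 1.01 ± 0.13 in βENaC males. The difference between the sexes in the smoke coefficient was 0.59 ± 0.11 log2 units. Tested alone, this exposure by sex term had an adjusted p of 0.0383 (limma), passed by 0.00638% of all rows. Tested together with the exposure by genotype term, the adjusted p was 0.092, which did not pass. At 5 days the term was 0.18 ± 0.14 and did not pass, and Slc1a4 smoke minus sham ranged from -0.03 ± 0.13 in βENaC females to 0.44 ± 0.15 in βENaC males.

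Slc7a5 (NM_011404), which carries large neutral amino acids such as leucine, rose by 0.41 ± 0.09 log2 units at 1 day (limma, adjusted p = 0.00142; 0.44 without the mice that stood apart). Its lowest, median and highest values were 6.13, 6.42 and 7.19 in sham and 6.22, 6.90 and 7.54 in smoke-exposed mice, and 4 of 20 smoke-exposed mice exceeded every sham mouse, the highest of which is among the mice that stood apart. The coefficient was 0.57 ± 0.12 in WT mice (adjusted p = 0.00329) and 0.25 ± 0.12 in βENaC mice (adjusted p = 0.288), and the test of that difference did not pass (0.33 ± 0.16, adjusted p = 0.708 alone). At 5 days it was 0.23 ± 0.07 (adjusted p = 0.0513), and 0.17 without the mice that stood apart (adjusted p = 0.0457), 2 of which were the highest of their groups at 7.13 and 7.15. Of the 9 genes, Slc1a4 alone was called higher in males over both exposures at 1 day (0.39 ± 0.07, adjusted p = 0.000207), where 0.651% of all rows were. That coefficient lay just over the threshold of 0.379, and the call was lost with each array centered on its median (0.37), with quantile normalization (0.34) and in 10 of 40 refits that left out 1 mouse. Slc7a5 (0.29 ± 0.09, adjusted p = 0.0255) and Slc3a2 (0.13 ± 0.04, adjusted p = 0.0372) passed the adjusted p for sex and not the fold threshold, so that 3 of the 9 passed it, as did 9.89% of all rows. Their smoke coefficients at 1 day were also larger in males, by 0.42 ± 0.16 for Slc7a5 and 0.22 ± 0.08 for Slc3a2. Neither exposure by sex term passed when tested alone (limma, adjusted p = 0.671 and 0.659). At 5 days none passed it (0.616% of all rows did, and 0.147% were called higher in males), and 1 of the 9 had an unadjusted p below 0.05, as had 11.3% of all rows.

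**Figure D3:**
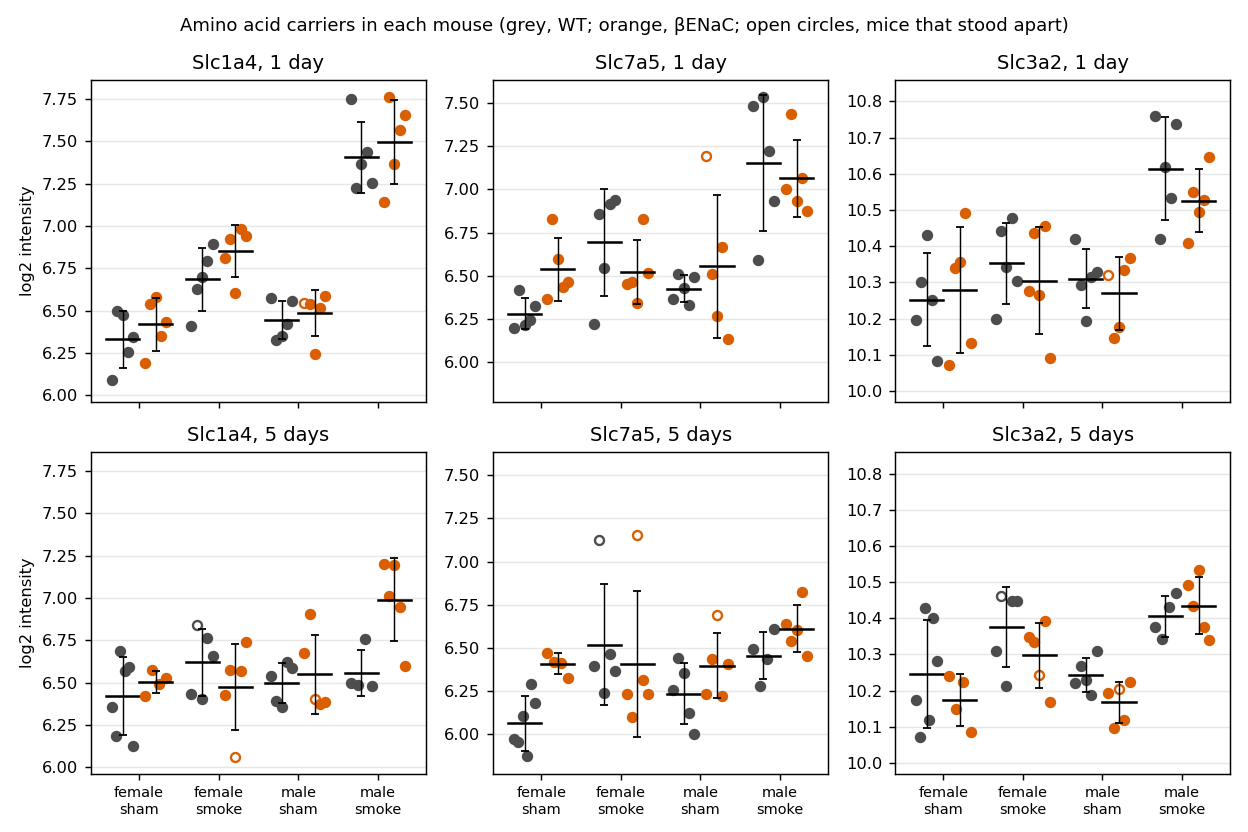
Log2 intensity (vertical axes) of Slc1a4, Slc7a5 and Slc3a2 in each mouse by sex and exposure after 1 day (top) and 5 days (bottom), with WT in grey and βENaC in orange, group means ± SD as bars, and the mice that stood apart as open circles. At 1 day every smoke-exposed male lies above every smoke-exposed female for Slc1a4 (7.14 or more against 6.98 or less).

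The mRNAs of the regulators did not pass the test for smoke. Atf4 (NM_009716), the transcription factor of the response, had a row mean of 8.61 and a small spread within groups (SD 0.10). At 1 day its lowest, median and highest values were 8.44, 8.59 and 8.86 in sham and 8.42, 8.66 and 8.82 in smoke-exposed mice, with a coefficient of 0.03 ± 0.03 (limma, adjusted p = 0.615), and at 5 days the coefficient was -0.08 ± 0.03 (adjusted p = 0.2). Ddit3 (NM_001290183), the transcription factor CHOP that acts late in prolonged stress, had coefficients of 0.15 ± 0.07 after 1 day (adjusted p = 0.204) and -0.01 ± 0.06 after 5 (adjusted p = 0.977). Its values ran from 6.37 to 7.23 in sham and from 6.27 to 7.35 in smoke-exposed mice at 1 day.

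Among the targets of ATF4, Trib3 (NM_175093), a pseudokinase that restrains ATF4 and AKT signalling, differed between smoke and sham by 0.13 ± 0.08 after 1 day (limma, adjusted p = 0.32) and by -0.11 ± 0.07 after 5 days (adjusted p = 0.435). Within genotype at 1 day it was 0.32 ± 0.10 in WT (adjusted p = 0.065) and -0.05 ± 0.10 in βENaC mice (adjusted p = 0.856). By sex, Trib3 smoke minus sham at 1 day was 0.55 ± 0.13 in WT males and 0.08 ± 0.11 in WT females. It was -0.04 ± 0.19 in βENaC males and -0.07 ± 0.10 in βENaC females. Chac1 (NM_026929), an enzyme that breaks down glutathione, was 0.26 ± 0.08 higher with smoke after 1 day (adjusted p = 0.029), below the fold threshold, and differed by 0.08 ± 0.04 after 5 days (adjusted p = 0.369). Chac1 and Trib3 were dim, with means of 4.47 and 4.46 near the median row of 4.51, so their differences are set against a signal in which expression and background were not separated here. The lowest, median and highest values of Chac1 at 1 day were 3.92, 4.4 and 4.96 in sham and 4.11, 4.77 and 5.16 in smoke-exposed mice, and 3 of 20 exceeded every sham mouse.

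Sesn2 (NM_144907), a sestrin that restrains mTORC1 when leucine is short, was 0.26 ± 0.06 higher after 1 day of smoke (limma, adjusted p = 0.00146), a 1.2-fold difference below the threshold. Its lowest, median and highest values were 6.49, 6.83 and 7.09 in sham and 6.63, 7.02 and 7.33 in smoke-exposed mice, and 9 of 20 exceeded every sham mouse. In WT mice the coefficient was 0.38 ± 0.08 (adjusted p = 0.00245), just under the fold threshold (0.40 and called when each array was centered on its median), and 0.15 ± 0.08 in βENaC mice (adjusted p = 0.322). At 5 days it was 0.15 ± 0.06 (adjusted p = 0.168).

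**Figure D4:**
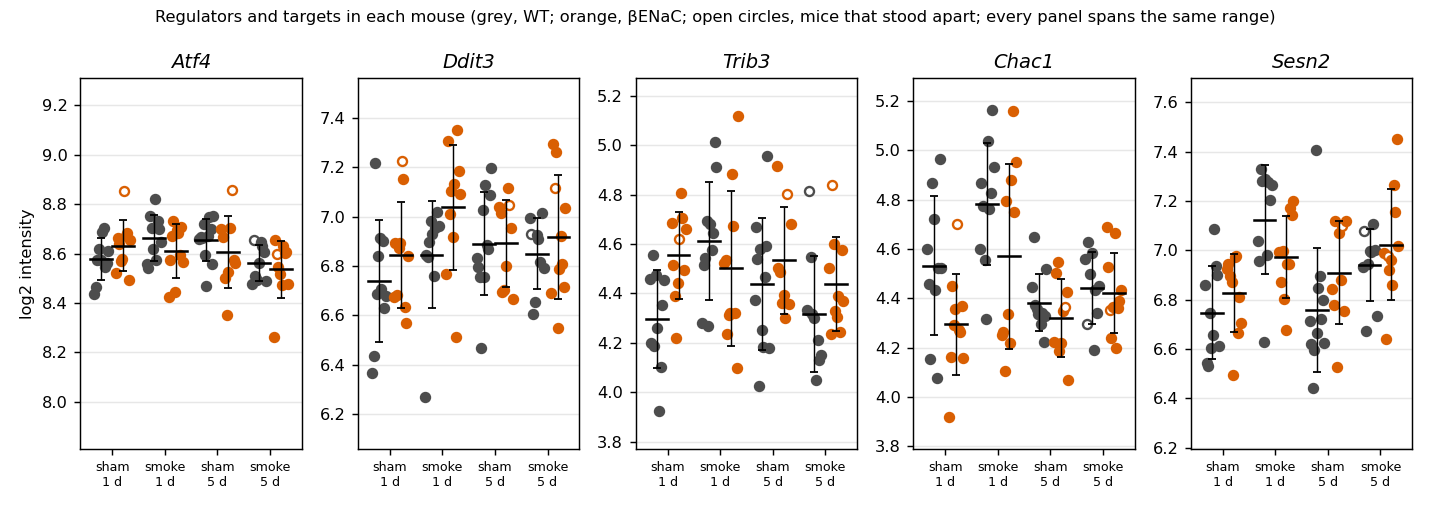
Log2 intensity (vertical axes, each spanning the same range) of Atf4, Ddit3, Trib3, Chac1 and Sesn2 in each mouse by exposure and duration, WT in grey and βENaC in orange, with means ± SD as bars and the mice that stood apart as open circles. Sham and smoke-exposed ranges overlap for each of the 5 genes; for Sesn2, 9 of 20 smoke-exposed mice at 1 day lie above the highest sham mouse.

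Across the 9 genes, 3 were called higher with smoke at 1 day (Slc7a11, Slc1a4 and Slc7a5) and 1 at 5 days (Slc7a11), against 0.485% and 0.577% of all rows; nothing is read from these counts, since the genes were chosen with exposure results known. An adjusted p below 0.05 was reached by 6 of the 9 at 1 day, as by 9.45% of all rows. In WT mice 3 were called at 1 day and 1 at 5 days, against 0.463% and 0.453% of all rows, and in βENaC mice 2 and 1, against 0.514% and 0.466%. The joint test of both interaction terms called 1 of the 9 at 1 day (0.00638% of all rows) and none at 5 days (0% of all rows), where 1 of the 9 and 3.46% of all rows had an unadjusted p below 0.05. The call at 1 day was that of Slc7a11, whose exposure by genotype values were known when the genes were chosen. It is therefore a description and not independent evidence. The call was lost with the ordinary linear model (adjusted p = 0.0742), with an intensity trend and robust prior (0.0545), with the replicate number as a block (0.0716) and in 22 of 40 limma refits that left out 1 mouse. The median coefficient of the 9 was 0.26 at 1 day and 0.15 at 5 days, against 0.01 and -0.0018 over all rows. Markers of other cells also moved with smoke. The monocyte list (6 of 6 measured) had 4 genes called lower at 1 day and 5 at 5 days, and its mean log2 intensity at 1 day ranged from 6.66 to 8.38 over sham and from 6.59 to 7.51 over smoke-exposed mice, and at 5 days from 6.92 to 7.69 in βENaC sham, 6.66 to 7.26 in βENaC smoke, 7.03 to 7.51 in WT sham and 6.08 to 7.05 in WT smoke mice. The red cell list (3 of 5 measured) was higher with smoke at 5 days. Its mean log2 intensity was 7.22 in WT sham and 8.52 in WT smoke mice, and 6.87 in βENaC sham and 8.41 in βENaC smoke mice. The part of these lists in the differences was not tested.

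**Figure D5:**
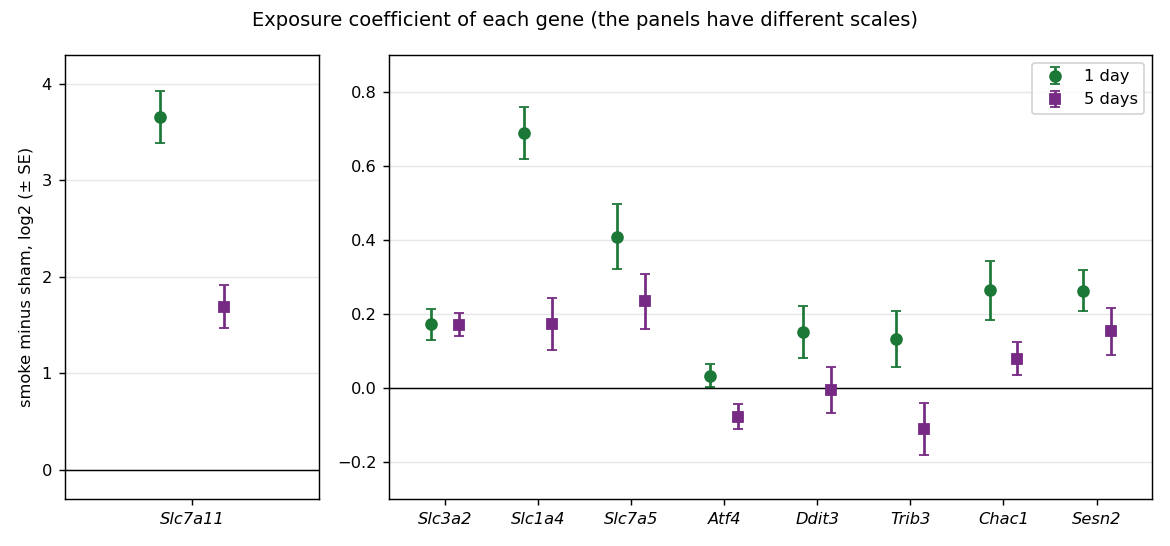
Exposure coefficient (smoke minus sham, log2, ± SE) of each gene after 1 day (circles) and 5 days (squares), with Slc7a11 on its own scale at left. Slc7a11 lies at 3.65 and 1.69, Slc1a4 at 0.69 and 0.17, and Atf4 lies at 0.03 and -0.08.

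Other genes of the pathway were read from lists, counting the genes measured. Over all 31350 rows, 1576 were higher and 1388 lower by adjusted p at 1 day and 993 and 1055 at 5 days, and 152 were called higher and 185 lower at 1 day and 181 each way at 5 days. Genes named here that were not called were picked after their values were seen. Upstream, none of 7 eIF2 kinase and phosphatase genes was called at either duration. Among 8 other stress-response transcription factors none was called, and Nfe2l2, which encodes NRF2, had coefficients of 0.27 ± 0.03 (limma, adjusted p = 1.24e-08) and 0.23 ± 0.03 (adjusted p = 6.37e-08). Among 11 other ATF4 target genes none was called, and 6 at 1 day and 3 at 5 days were higher by adjusted p alone, including Sqstm1 (0.29 ± 0.03, adjusted p = 1.18e-07), Cth (0.32 ± 0.07, adjusted p = 0.00224), which makes cysteine from cystathionine, and Eif4ebp1 (0.28 ± 0.04, adjusted p = 1.53e-05) at 1 day. None of 13 endoplasmic reticulum chaperone and unfolded protein response genes was called, and by adjusted p 1 was lower at 1 day and 3 at 5 days (Hspa5, Hsp90b1 and Calr, the last by 0.19 ± 0.04). None of 17 aminoacyl-tRNA synthetases was called, with 2 higher and 1 lower by adjusted p at 1 day.

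Among 8 serine and one-carbon enzymes, Psat1, of serine synthesis, rose by 0.48 ± 0.08 (limma, adjusted p = 7.81e-05) and Mthfd2, of the mitochondrial folate cycle, by 0.46 ± 0.11 (adjusted p = 0.00384) at 1 day, and none was called at 5 days. Among 18 other amino acid transporters, the glycine carrier Slc6a9 rose by 0.40 ± 0.06 at 1 day (adjusted p = 6.81e-06) and Slc38a4 by 0.40 ± 0.10 at 1 day and 0.41 ± 0.11 at 5 days (adjusted p = 0.00498 and 0.017), while Slc7a10 (Asc-1) fell by 0.76 ± 0.12 at 5 days (adjusted p = 2.16e-05). Among 13 genes of cysteine and glutathione use 5 were called higher at each duration and none lower. They included both subunits of the rate-limiting enzyme of glutathione synthesis, Gclc (1.06 ± 0.10 at 1 day and 0.40 ± 0.08 at 5 days) and Gclm (1.19 ± 0.06 and 0.79 ± 0.06), with the thioredoxin reductase Txnrd1 (0.83 ± 0.06 and 0.60 ± 0.05) and the sulfiredoxin Srxn1 (1.35 ± 0.12 and 0.60 ± 0.07). Sestrins and other mTORC1 regulators had none of 7 called. In sham mice at 1 day the genotype comparison called no gene of these lists higher in βENaC mice and 1 transporter lower. Over all rows 150 were called higher and 104 lower. In sham mice at 5 days the comparison called 5 genes of these lists higher and 1 lower in βENaC mice, against 577 and 260 of all rows. Those called higher were Gclc (0.52 ± 0.10, adjusted p = 0.000667), Mthfd2 (0.62 ± 0.14, adjusted p = 0.00443), the transporters Slc1a2 and Slc7a8 and the chaperone cofactor Sdf2l1, and the gene called lower was Slc38a4 (-0.71 ± 0.16, adjusted p = 0.0039).

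The pattern of Slc7a11 over the 16 group means was most like that of Gclc (Pearson r = 0.981), Abcc1 (0.954), Txnrd1 (0.949), Lrp8 (0.938) and Hmox1 (0.926). For Chac1 the nearest rows included 6430548M08Rik (0.892), Zfp319 (0.883), Ankrd33b (0.875) and Slc43a2 (0.867). Between members, the group means of Slc7a11 correlated at 0.857 with Slc7a5, 0.856 with Sesn2 and 0.815 with Slc1a4, and at 0.123 with Atf4. Within groups, over deviations from the group means in 79 mice, the highest values were 0.561 for Slc7a11 with Slc7a5 and with Atf4, 0.427 for Slc3a2 with Slc1a4 and 0.405 for Atf4 with Ddit3. Without the mice that stood apart (75 mice), Slc7a11 correlated at 0.321 with Slc7a5, 0.459 with Atf4 and 0.499 with Slc1a4. All of these are descriptions over values from the same arrays.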

How the data were processed

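Whole right lung RNA of 79 mice was hybridised to Affymetrix mouse Gene 2.1 arrays on 1 plate. The authors deposited log2 intensities made by RMA, with a correction for GC content and sequence of the probes before quantile normalization and a median polish after it (Expression Console 1.4 and Partek 6.6 per the labels), after removing 1 mislabelled array, and these values were used unchanged. Groups came from sample titles. Symbols (21837 of 31350 rows) came from the study's tables or RefSeq (GRCm38.p6). Members and gene lists were chosen with earlier results of these data known. Named genes were the members, up to 4 called genes per list, and the 5 rows nearest to Slc7a11 and to Chac1; some results that these rules name are not reported here. Each duration was fitted in limma 3.58.1 (R 4.3.3) with exposure, genotype and sex, and a moderated F-test took both interaction terms of exposure, with genotype and with sex, together. Exposure by duration was fitted over all mice, without genotype or sex. Effects within genotype or exposure came from nested terms with sex. Fits were tested on simulated data. Arrays carry no counts, and their number limits the precision; mice are the replicates. Figures were drawn with matplotlib 3.10.9 (Python 3.11.15). Alternatives were the ordinary linear model of the study, 2 normalizations, a filter that removed the lowest 30% of rows, array weights, another prior, a replicate block, other fold thresholds, fewer mice and 1 fit over all mice.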

Additional observations from a re-analysis of the deposited data

Results flagged for a closer look

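Among the 144 combinations of a gene and a group of mice, 10 held a mouse whose gap to its neighbour was large against the range of its group, and chance gives about 1 in 20. In 5-day mice, Slc7a5 was 7.15 in βENaC smoke female replicate 3 (the others 6.10 to 6.32) and 7.13 in WT smoke female replicate 2 (the others 6.24 to 6.47), and both are among the mice that stood apart. Slc1a4 was 6.24 in 1-day βENaC sham male replicate 3 (the others 6.52 to 6.58) and 6.76 in 5-day WT smoke male replicate 4 (the others 6.48 to 6.50). Sesn2 was 6.49 in 1-day βENaC sham female replicate 5 (the others 6.87 to 6.94) and 6.98 in 1-day WT smoke male replicate 2 (the others 7.20 to 7.29). At 5 days Sesn2 was 6.64 in βENaC smoke female replicate 2 (the others 6.92 to 6.99) and 7.41 in WT sham female replicate 5 (the others 6.44 to 6.71). Chac1 was 4.65 in 5-day WT sham female replicate 2 (the others 4.34 to 4.44), and Ddit3 was 6.27 in 1-day WT smoke female replicate 1 (the others 6.84 to 6.98).

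Smoke coefficients were flagged as different between groups in 4 cases. The genes were chosen with exposure results known, so these are descriptions. The Slc7a11 coefficient was 2.30 log2 units larger in WT than in βENaC mice at 1 day. From 1 to 5 days it changed by -1.86 for Slc7a11 and by -0.51 for Slc1a4. The Slc1a4 coefficient was 0.59 larger in males than in females at 1 day when that term was tested alone. Tested together with the exposure by genotype term, Slc1a4 did not pass (limma, adjusted p = 0.092).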

How the results depend on the processing

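Of the results other than those with 1 mouse left out, 1355 kept direction and side of the threshold, 7 lost the call, 5 gained it and 10 reversed. The counts that follow are of the 9 genes called. Without a fold threshold the count for exposure was 6 in place of 3 at 1 day and 2 in place of 1 at 5 days, 5 in place of 3 in WT mice at 1 day, 2 in place of 1 in βENaC mice at 5 days, and 3 in place of 1 for sex at 1 day. With a 1.5-fold threshold Slc7a5 lost its exposure call at 1 day, which left 2 in place of 3 over both genotypes and in WT mice. Sesn2 gained a call in WT mice at 1 day with centering, quantile normalization and array weights, which gave 4 in place of 3, and in 9 refits without 1 mouse. In βENaC mice at 5 days the exposure count was 0 with the ordinary linear model and 0 with an intensity trend and robust prior. The count for the interactions at 1 day, 1 in the reported test, was 0 with each of these and 2 with array weights or quantile normalization. The sex count at 1 day was 0 with a 1.5-fold threshold, with each array centered on its median and with quantile normalization, where the coefficient of Slc1a4 was 0.37 and 0.34, and 2 in 1 fit over all mice.

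Replicate numbers did not pair the mice (mean correlation of deviations 0.0086 for the same number and -0.0018 for different numbers), and with the replicate number as a block the count for the interactions at 1 day was 0. When single mice were dropped one at a time, counts ranged from 0 to 1 for exposure in βENaC mice at 5 days (0 in 14 refits), from 1 to 2 in WT mice at 5 days (2 without WT smoke male 5-day replicate 3), from 0 to 2 for the interactions at 1 day (Slc7a11 lost its call in 22 of 40 refits), from 0 to 1 for genotype in smoke-exposed mice at 5 days (1 without βENaC smoke female 5-day replicate 1) and from 0 to 1 for sex at 1 day (Slc1a4 lost its call in 10 refits, each without a smoke-exposed mouse, where its coefficient fell as low as 0.36). Slc7a5 at 1 day had a coefficient of 0.378 without WT smoke male 1-day replicate 3, under the fold threshold. The causes were not tested.

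Coefficients that changed sign were near zero. None was called except Slc1a4 in the joint interaction test at 1 day with quantile normalization (adjusted p = 0.0383), which also takes the exposure by sex term. Atf4 for genotype at 1 day was -0.0082 with array weights, -0.014 with centering, -0.012 with quantile normalization and -0.011 without the mice that stood apart. Chac1 in the exposure by genotype term at 1 day was 0.012 with centering and 0.026 with quantile normalization, and Slc1a4 was 0.0045 with the latter. Ddit3 for exposure at 5 days was 0.0024 with centering, Slc3a2 for genotype in sham mice at 1 day was 0.0058 with array weights, and Slc7a5 for genotype at 1 day was -0.0016 without the mice that stood apart. The alternative of the row with the next highest mean was not run, since each gene had 1 row. Signal over background could not be measured from the deposited values, which limits the dim rows of Chac1 and Trib3 and the WT sham values of Slc7a11.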
